A study of Vitis vinifera with 27 samples.

Results

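Leaf moving at véraison (LM-V) opens the canopy around a grape cluster without removing any leaf, and the comparison described here followed the berries of LM-V vines through early ripening. It set the 3 LM-V libraries of stage E-L 37, the end of véraison, against the 3 LM-V libraries of stage E-L 36, the middle of ripening, which are 6 of the 27 RNA-seq libraries of the series. The libraries were chosen by treatment and stage, without a filter on measured values, and all genes of the table were considered. The comparison was picked with earlier results of these data known. The other libraries came from leaf removal at véraison (LR-V) and from untreated control vines (C) at E-L 36 and 37, and from all 3 treatments at harvest, E-L 38. All vines were own-rooted Cabernet Sauvignon of 1 commercial vineyard in the 2012 season. For LM-V, the basal leaves 1 to 6 of each shoot with clusters were tied aside, for LR-V the same leaves were cut off, and C vines kept their leaves. A replicate (A, B or C) was a pool of berries from 15 vines, of which 50 berries were used for RNA, and these vines were drawn at random within the vineyard. Whole berries without seeds were extracted, so skin and flesh are not separated, and fewer cells of a type cannot be told apart from less RNA per cell.

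During ripening a grape berry loads sugar, loses malic acid and chlorophyll, softens as its cell walls are remodelled, and in red cultivars fills the skin vacuoles with anthocyanins. Abscisic acid and sugar are known to promote these steps, whereas auxin and cytokinin are known mainly from the green berry. Flavonoids and stilbenes are made from phenylalanine by chains of enzymes that MYB transcription factors switch on, and light on the cluster is known to raise flavonols in the skin.

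The values are FPKM (fragments per kilobase of transcript, scaled to the mapped fragments of the library), and read counts were not used here, so depth is known only in relative terms. The 6 LM-V libraries had summed FPKM of 641894 to 678287, between 16582 and 17081 genes at FPKM 1 or more, and relative depths of 0.952 to 1.00 as judged from the step between the lowest values of a library. Libraries of 1 stage correlated at 0.955 to 0.976 over tested genes on the log2 scale, and libraries of different stages at 0.935 to 0.956. The berry skin markers were present in all 6 libraries. The UFGT gene VIT_216s0039g02230, which encodes the enzyme that attaches glucose to anthocyanidins, had 58.6, 48.4 and 58.6 FPKM at E-L 37, against 58.6, 61.1 and 45.6 FPKM at E-L 36. VviMYBA1, the regulator of that gene, had 7.85, 9.83 and 13.6 FPKM at E-L 37, against 18.2, 17.8 and 13.1 FPKM at E-L 36, and its log2 fold change of -0.62 ± 0.23 did not pass the test as deposited (adjusted p = 0.0516) but did after scaling.

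One library stood apart in transcripts of seed storage. The 8 genes annotated as 2S albumin, vicilin, legumin, globulin or oleosin summed to 0.620, 110.5 and 0.390 FPKM in E-L 37 replicates A, B and C, against 0, 0.590 and 0.830 FPKM in E-L 36 replicates A, B and C. Vicilin and 2S albumin are reserve proteins of the seed. The 2S albumin gene VIT_219s0177g00090 had 0.260, 8.45 and 0.270 FPKM at E-L 37, against 0, 0 and 0 FPKM at E-L 36, and the basic 7S globulin-like gene VIT_214s0128g00200 had 0.250, 92.7 and 0.120 FPKM at E-L 37, against 0, 0.370 and 0.130 FPKM at E-L 36. The dehydrin gene VIT_204s0023g02480, a protein of drying seeds and stressed tissue, had 147, 521 and 61.2 FPKM at E-L 37, against 22.2, 69.2 and 34.9 FPKM at E-L 36, again with replicate B highest at each stage. Of the 8 seed storage genes only 3 reached the filter and were tested, and neither these nor the dehydrin gene passed the test between the stages. The part of these genes in the results below was not tested beyond leaving the library out or adding 2S albumin and vicilin as a covariate. Without E-L 37 replicate B, 3966 genes were called higher and 1781 lower, and with the covariate 3556 and 1912.

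**Figure D1:**
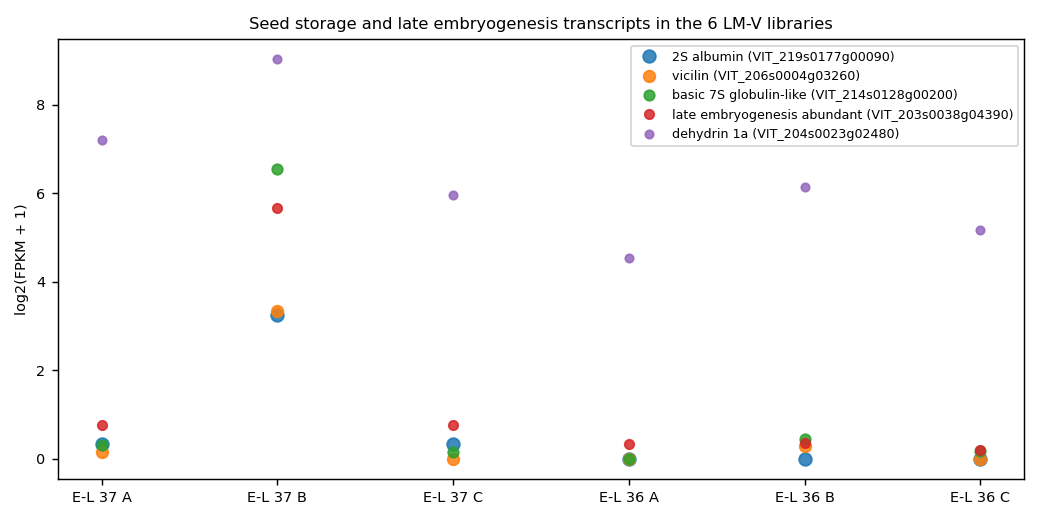
Expression of 4 seed storage or late embryogenesis genes and of dehydrin 1a as log2(FPKM + 1), 1 point for each gene in each of the 6 LM-V libraries. E-L 37 replicate B lies above the other 5 libraries for all 5 genes, with the 7S globulin-like gene at 92.7 FPKM there and at most 0.370 FPKM elsewhere.

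Between the stages the transcriptome shifted widely and mostly by moderate amounts. Of 19761 genes that reached FPKM 1 in 3 or more of the 27 libraries, 3720 (18.8%) were called higher and 1743 (8.82%) lower at E-L 37 than at E-L 36 by limma on log2(FPKM + 1), at an adjusted p below 0.05. Only 297 of the called genes had a log2 fold change of at least 1 and 467 one of at most -1, so falls of that size outnumbered rises. The 3 libraries of E-L 37 all lay above the 3 of E-L 36 for 5015 genes and all below for 2572, of which 3412 and 1655 were also called. Leaving out E-L 37 replicate C gave 2395 genes higher and 1200 lower.

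The split of higher against lower genes depended on how libraries were scaled. As deposited, the median log2 fold change of all tested genes was 0.13. Scaling by the median of ratios set that median to 0 and called 2011 genes higher (10.2%) and 2701 lower (13.7%). All 2011 genes higher after scaling were also called higher as deposited, all 1743 genes lower as deposited were also called lower after scaling, and 0 genes were called in opposite directions. Fold changes below are for FPKM as deposited, on the log2(FPKM + 1) scale, which understates the change of low genes, and are given with their standard error (SE) and 3 libraries per stage. A named gene whose call ended after scaling is marked as such. Counts in the gene lists below are read beside the shares of all tested genes, 18.8% higher and 8.82% lower as deposited, and 10.2% and 13.7% after scaling.

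The largest falls were led by a pectin-degrading enzyme. The pectate lyase gene VIT_201s0137g00240, whose product cleaves the pectin of the cell wall, had 0.830, 4.17 and 0.370 FPKM at E-L 37, against 34.3, 44.7 and 24.9 FPKM at E-L 36 (-3.88 ± 0.36, adjusted p = 4.22e-07). VIT_201s0011g05180, which the annotation ties to defence response, had 2.62, 5.89 and 3.38 FPKM at E-L 37, against 33.2, 43.9 and 35.4 FPKM at E-L 36 (-3.001 ± 0.33, adjusted p = 2.54e-06). The 10 largest falls by the naming rule also held VIT_205s0020g03970, annotated as a sulfate transporter (-2.58), VIT_218s0001g00470, titled an L-ascorbate oxidase homolog (-2.43), VIT_208s0007g00440, annotated with cell wall organization (-2.46), the tonoplast aquaporin gene VIT_206s0061g00730 (-2.39) and 4 genes without a clear name, VIT_216s0039g01980, VIT_208s0007g01300, VIT_204s0008g06150 and VIT_200s0187g00160 (-2.53, -2.43, -2.36 and -2.35). The fall of VIT_216s0039g01980 lost its call in 6 of 15 alternative settings, and the others named in this paragraph kept theirs in all settings tried.

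The largest rise was of VIT_201s0127g00470, whose closest protein is titled glycogenin-1 and whose GO term names inositol 3-alpha-galactosyltransferase, the enzyme that makes galactinol for the raffinose family of sugars. It had 84.5, 45.8 and 110.2 FPKM at E-L 37, against 4.09, 14.3 and 7.26 FPKM at E-L 36 (3.14 ± 0.66, adjusted p = 0.00159). Replicate B was the lowest library at E-L 37 and the highest at E-L 36. The nuclease S1 gene VIT_200s0301g00100, whose product degrades single-stranded nucleic acid, had 31.0, 21.9 and 41.8 FPKM at E-L 37, against 2.81, 4.54 and 3.16 FPKM at E-L 36 (2.83 ± 0.38, adjusted p = 2.32e-05). Pectinesterase VIT_215s0048g00500, which removes methyl groups from pectin, had 30.8, 14.7 and 42.7 FPKM at E-L 37, against 2.15, 5.50 and 3.93 FPKM at E-L 36 (2.58 ± 0.43, adjusted p = 0.000166). The AUX/IAA gene VIT_214s0030g02310, from a family of repressors of auxin response, had 15.4, 8.91 and 12.6 FPKM at E-L 37, against 3.19, 0.720 and 1.41 FPKM at E-L 36 (2.33 ± 0.29, adjusted p = 9.38e-06). The naming rule required stages that do not overlap, so the gap between them in these genes is no finding. The rest of the 10 largest rises were VIT_209s0002g00580 (GDSL esterase/lipase, 2.46), VIT_204s0043g00840 (annotated with ubiquitin ligase activity, 2.13), VIT_200s0173g00226 (a DnaK-type chaperone, 2.13) and the unnamed VIT_200s0194g00180, VIT_206s0004g01015 and VIT_219s0014g00440 (2.44, 2.37 and 2.25). Of these, VIT_209s0002g00580 and VIT_206s0004g01015 lost their call in 4 of 15 settings each and VIT_219s0014g00440 in 1.

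**Figure D2:**
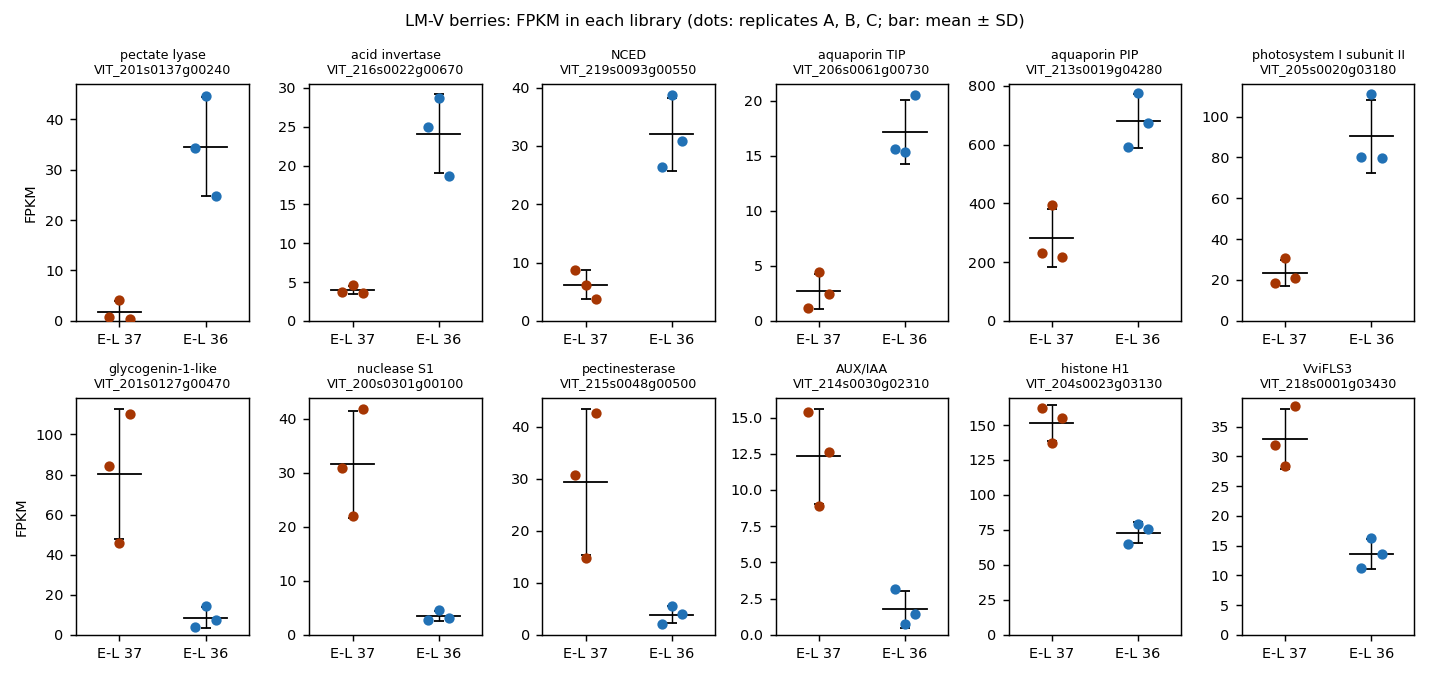
FPKM of 12 genes in each LM-V library, with E-L 37 left of E-L 36. Points are replicates A, B and C and the bars give mean ± SD. The 6 genes of the upper row were lower at E-L 37 and the 6 of the lower row higher, and the stages do not overlap, which the naming rule required of the 6 genes taken as largest changes.

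Genes that loosen and rebuild the cell wall held several of the large falls. Of all tested genes, 8.82% were lower and 18.8% higher as deposited, and 13.7% and 10.2% after scaling. Of 11 pectate lyase genes tested, 6 fell and 2 rose, with a median log2 fold change of -0.88 beside 0.13 for all tested genes. The most abundant of them, VIT_205s0051g00590, had 26.7, 76.6 and 23.4 FPKM at E-L 37, against 152, 207 and 157 FPKM at E-L 36 (-2.19 ± 0.38, adjusted p = 0.000279). The neighbouring genes VIT_217s0000g09800 and VIT_217s0000g09810 fell by similar amounts (-1.94 and -1.65), and since they are alike, reads may be shared between them. Of 22 pectinesterase genes, 7 fell and 4 rose, and 8 fell and 2 rose after scaling. The ripening-related gene VIT_216s0022g00960 in this list was by far its most abundant member and had 7004, 7085 and 6964 FPKM at E-L 37, against 6167, 7561 and 7844 FPKM at E-L 36, which overlapped between the stages (-0.027 ± 0.11, adjusted p = 0.884). Polygalacturonase genes, whose products cut the pectin backbone, had 2 of 17 members higher and 1 lower, and 1 each after scaling, shares below those of all tested genes. VIT_216s0050g01110 rose (1.29 ± 0.20, adjusted p = 6.67e-05) and VIT_202s0025g01330 fell (-1.03 ± 0.20, adjusted p = 0.000479).

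Expansins loosen walls without cutting them, and 3 of 13 tested members fell and 0 rose, as deposited and after scaling. Beside them, 8.82% and 13.7% of all tested genes were lower. Expansin-A11, VIT_218s0001g01130, had 614, 818 and 564 FPKM at E-L 37, against 925, 1192 and 1000.0 FPKM at E-L 36 (-0.65 ± 0.15, adjusted p = 0.00278), and expansin-like A2, VIT_203s0038g03430, had 90.3, 124 and 65.3 FPKM at E-L 37, against 208, 261 and 209.6 FPKM at E-L 36 (-1.31 ± 0.20, adjusted p = 7.43e-05). Xyloglucan endotransglucosylases recut the chains that tie cellulose fibres together, and 9 of 32 fell and 2 rose, and 12 fell and 2 rose after scaling. VIT_211s0052g01260, VIT_211s0052g01270 and VIT_211s0052g01320, which lie in 1 cluster of like genes, fell by 0.91, 1.32 and 1.03 on the log2 scale, and each lost its call in at least 1 alternative setting. The most abundant member, VIT_206s0061g00550, had 855, 1180.4 and 816 FPKM at E-L 37, against 1109, 1289 and 1373 FPKM at E-L 36, and was called lower only after scaling (adjusted p as deposited 0.0541). Of 34 cellulose synthase genes, 8 fell and 1 rose, and 10 fell and 1 rose after scaling. VIT_204s0008g05220, the most abundant cellulose synthase, had 82.4, 109 and 87.6 FPKM at E-L 37, against 152, 146 and 141 FPKM at E-L 36 (-0.66 ± 0.10, adjusted p = 8.73e-05). Of 16 beta-galactosidase genes, 4 fell and 2 rose, among them VIT_207s0031g02480 (-1.56) and VIT_211s0016g02200 (1.20).

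Many water channel genes fell. Of 24 aquaporin genes tested, 11 were lower and 3 higher, against 12 and 1 after scaling, beside 8.82% and 13.7% of all tested genes lower. The median of the list was -0.35. The most abundant, VIT_202s0025g03390, a channel of the plasma membrane (PIP), had 601, 901 and 526 FPKM at E-L 37, against 1200.2, 1531 and 1272 FPKM at E-L 36 (-1.01 ± 0.14, adjusted p = 2.25e-05). The PIP gene VIT_213s0019g04280 had 230.4, 394 and 219 FPKM at E-L 37, against 592, 776 and 673 FPKM at E-L 36 (-1.32 ± 0.17, adjusted p = 1.17e-05). Both were highest in replicate B at each stage, without overlap between the stages. VIT_206s0004g02850, titled PIP2, had 2.98, 3.38 and 1.77 FPKM at E-L 37, against 14.4, 21.3 and 15.5 FPKM at E-L 36 (-2.29 ± 0.28, adjusted p = 6.34e-06), and VIT_206s0061g00730, a channel of the vacuole membrane, had 1.20, 4.40 and 2.41 FPKM at E-L 37, against 15.6, 15.3 and 20.5 FPKM at E-L 36 (-2.39 ± 0.31, adjusted p = 1.23e-05).

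In sucrose metabolism, acid invertase genes fell. Acid invertases split sucrose into glucose and fructose, and 4 of 5 tested genes fell and 0 rose, with a median of -1.18, beside 8.82% of all tested genes lower. The soluble acid invertase VIT_216s0022g00670 had 3.70, 4.58 and 3.57 FPKM at E-L 37, against 24.9, 28.7 and 18.7 FPKM at E-L 36 (-2.33 ± 0.31, adjusted p = 1.52e-05), and averaged 1.29 ± 0.208 FPKM at E-L 38 (SD, n = 3). VIT_202s0154g00090 had 7.33, 7.06 and 6.60 FPKM at E-L 37, against 16.6, 21.9 and 13.9 FPKM at E-L 36 (-1.19 ± 0.21, adjusted p = 0.000221). Part of the invertase list are short loci whose reads may come from 1 gene. Among the genes that make or reversibly split sucrose (sucrose-phosphate synthase and sucrose synthase), 4 of 7 rose and 0 fell, but after scaling 1 rose, a share near the 10.2% of all tested genes. This was sucrose-phosphate synthase VIT_205s0029g01140 (0.47 ± 0.12, adjusted p = 0.00612), whose call was lost in 3 other settings. Sugar transporters moved both ways, with 6 of 34 higher and 4 lower as deposited and 1 higher and 5 lower after scaling. The SWEET gene VIT_217s0000g00830, a channel that lets sugar pass in both directions, had 80.05, 136 and 91.3 FPKM at E-L 37, against 249, 267 and 259.7 FPKM at E-L 36 (-1.36 ± 0.32, adjusted p = 0.00352), and its neighbour VIT_217s0000g00820 had 1.22, 4.17 and 0.250 FPKM at E-L 37, against 7.64, 14.6 and 11.2 FPKM at E-L 36 (-2.28 ± 0.39, adjusted p = 0.000189). Both SWEET genes were lower in every E-L 37 library than in any E-L 36 library.

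In malate metabolism 6 of 28 genes rose and 7 fell, and after scaling 2 rose and 7 fell. NADP-dependent malic enzymes turn malate into pyruvate. VIT_211s0016g03210 had 88.0, 116 and 86.4 FPKM at E-L 37, against 195, 176 and 171 FPKM at E-L 36 (-0.90 ± 0.15, adjusted p = 0.000116), and VIT_204s0008g00180 had 4.12, 6.68 and 4.22 FPKM at E-L 37, against 12.03, 13.9 and 10.3 FPKM at E-L 36 (-1.14 ± 0.19, adjusted p = 0.000168). Malate dehydrogenases exchange malate and oxaloacetate, and the mitochondrial VIT_219s0014g01640 rose (0.48 ± 0.086, adjusted p = 0.000242), as did the glyoxysomal VIT_200s0373g00040 (0.53 ± 0.10, adjusted p = 0.000534). Phosphoenolpyruvate carboxykinase VIT_200s1995g00010, which leads carbon from malate towards sugar, had 546, 544 and 494 FPKM at E-L 37, against 428, 435 and 443 FPKM at E-L 36 and a log2 fold change of 0.28, called as deposited (adjusted p = 0.0303) and not after scaling.

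Many genes of the photosynthetic apparatus were lower at E-L 37. Of 62 genes of photosystems and light harvesting, 23 fell and 1 rose, and 29 fell and 1 rose after scaling, beside 8.82% and 13.7% of all tested genes lower, with a median of -0.39. Their summed FPKM was 413, 467 and 506 at E-L 37 and 721, 736 and 653 at E-L 36 in replicates A, B and C, so the stages did not overlap. Photosystem I subunit II, VIT_205s0020g03180, had the highest mean over the 6 libraries, though not at E-L 37, and had 18.6, 30.8 and 20.9 FPKM at E-L 37, against 80.3, 111 and 79.5 FPKM at E-L 36 (-1.91 ± 0.32, adjusted p = 0.000145). The 22-kDa photosystem II protein VIT_218s0001g02740, known for shedding excess light as heat, had 19.8, 17.1 and 20.6 FPKM at E-L 37, against 53.0, 39.6 and 32.0 FPKM at E-L 36 (-1.05 ± 0.17, adjusted p = 0.000108), and the chlorophyll a-b binding protein VIT_218s0089g01170 had 5.22, 8.19 and 5.16 FPKM at E-L 37, against 18.4, 18.6 and 16.4 FPKM at E-L 36 (-1.41 ± 0.23, adjusted p = 0.000131). Of 12 genes of the Calvin cycle, 2 fell and 1 rose, and 4 fell and 0 rose after scaling, and the small changes of RuBisCO genes VIT_206s0004g05180 (-0.82) and VIT_217s0000g03690 (-0.70) were lost in 1 and 8 of 15 alternative settings.

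Of the histones, the proteins that package DNA, many genes rose. Of 41 histone genes tested, 24 rose and 0 fell as deposited, and 22 rose and 0 fell after scaling, beside 18.8% and 10.2% of all tested genes higher, and the median was 0.56. Histone H1 VIT_204s0023g03130 had 162, 137 and 155 FPKM at E-L 37, against 64.6, 79.3 and 75.4 FPKM at E-L 36 (1.04 ± 0.11, adjusted p = 1.02e-06). Other linker histones, VIT_214s0081g00500 and VIT_207s0141g00730, rose by about the same amount (1.08 and 1.03), and the core histone H2A gene VIT_200s0865g00030 had 48.4, 40.4 and 43.5 FPKM at E-L 37, against 22.5, 20.9 and 18.6 FPKM at E-L 36 (1.06 ± 0.11, adjusted p = 1.39e-06). The most abundant, histone H3.3 VIT_200s2837g00010, did not pass the test (0.20 ± 0.11, adjusted p = 0.185). Cyclins and kinesins, which drive and carry out cell division, had 9 of 62 genes higher and 8 lower as deposited, and 5 higher and 13 lower after scaling, beside 8.82% and 13.7% of all tested genes lower. Histone genes are near-identical copies, so reads may be split among them.

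Among genes for breaking down proteins, the calls depended on the scaling. Of 63 genes of the proteasome, the complex that degrades ubiquitin-tagged proteins, 27 rose and 0 fell as deposited, beside 18.8% of all tested genes higher, and 9 rose and 0 fell after scaling, a share near the 10.2% of all tested genes. The 20S subunit alpha 4, VIT_203s0038g02300, had 218, 186 and 230.0 FPKM at E-L 37, against 133, 140.2 and 144 FPKM at E-L 36 (0.60 ± 0.074, adjusted p = 6.77e-06), and a regulatory subunit of the 26S particle, VIT_214s0060g02260, had 254, 188 and 255 FPKM at E-L 37, against 134, 145 and 159.9 FPKM at E-L 36 (0.65 ± 0.093, adjusted p = 2.99e-05). Of 11 autophagy genes, 6 rose and 0 fell, and 3 rose after scaling. The cysteine protease ATG4-like gene VIT_200s0215g00030, which trims ATG8 before it is joined to membranes, had 30.2, 27.2 and 29.9 FPKM at E-L 37, against 19.6, 18.6 and 16.8 FPKM at E-L 36 (0.64 ± 0.068, adjusted p = 1.44e-06), and ATG8C VIT_212s0059g00660 had 56.8, 50.8 and 51.8 FPKM at E-L 37, against 32.2, 38.3 and 37.1 FPKM at E-L 36 (0.56 ± 0.10, adjusted p = 0.000199).

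The counts of ribosomal protein and respiration genes depended on the scaling, and for respiration the direction did too. Of 316 ribosomal protein genes, 31 rose and 44 fell as deposited, and 13 rose and 86 fell after scaling. Falls thus outnumbered rises under both. Of all tested genes, 18.8% were higher and 8.82% lower as deposited, and 10.2% and 13.7% after scaling. L31-like VIT_213s0064g01240 had 50.9, 49.7 and 40.7 FPKM at E-L 37, against 71.8, 102 and 87.4 FPKM at E-L 36 (-0.87 ± 0.11, adjusted p = 6.01e-06). Of 71 genes of mitochondrial respiration, 14 rose and 2 fell as deposited, and 5 rose and 6 fell after scaling, so the list had no direction that held under both. A cytochrome c oxidase assembly gene, VIT_219s0014g02730, was the most abundant of the respiration list and had 543, 868 and 459 FPKM at E-L 37, against 931, 1835 and 1232 FPKM at E-L 36 (-1.09 ± 0.20, adjusted p = 0.000361), a call lost in 1 of 15 settings.

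**Figure D3:**
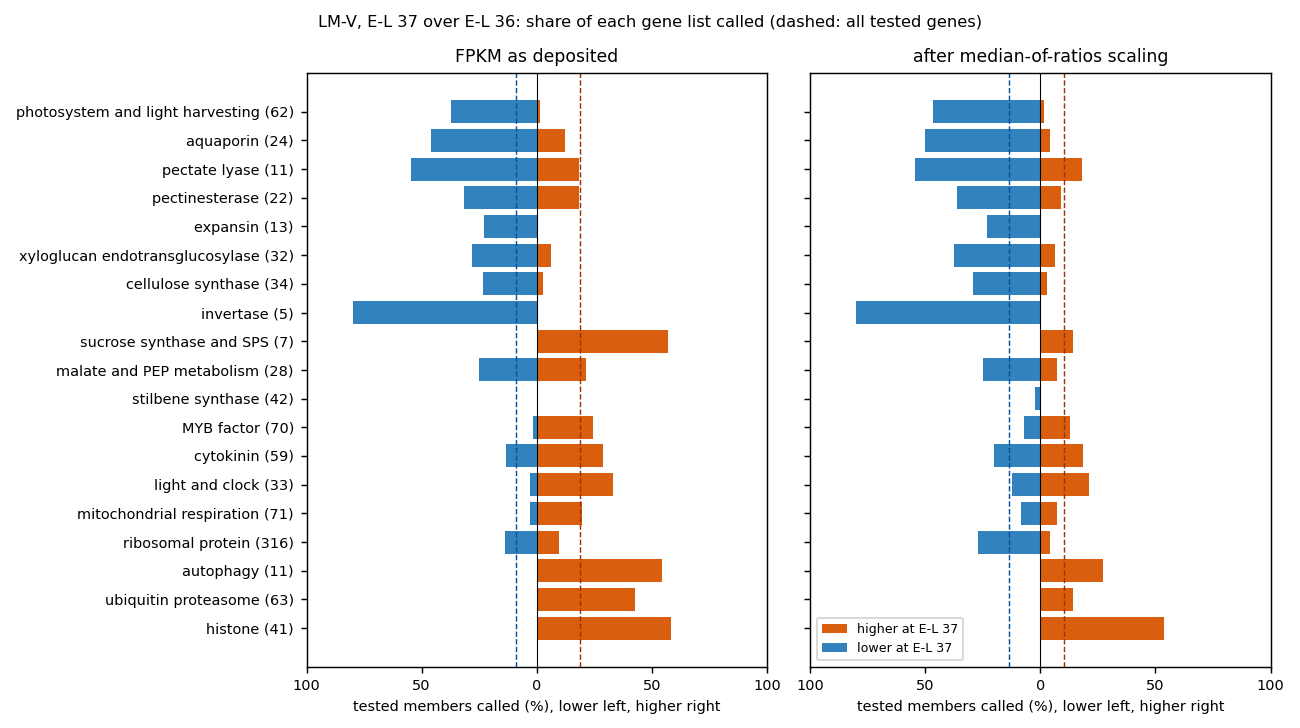
Share of the tested members of each gene list (number in brackets) called lower (left, blue) or higher (right, orange) at E-L 37 than at E-L 36 in LM-V, in percent, for FPKM as deposited and after median-of-ratios scaling. Dashed lines give the share of all tested genes, 8.82% lower and 18.8% higher as deposited and 13.7% lower and 10.2% higher after scaling.

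Most enzymes of the phenolic pathway did not pass the test between the stages, and neither did most of all tested genes. Beside the phenolic lists here and below, 18.8% of all tested genes were higher and 8.82% lower, and 10.2% and 13.7% after scaling. At the entry, 1 of 15 phenylalanine ammonia-lyase genes (PAL) fell and 0 rose, and 3 fell after scaling. The called member, VIT_200s2849g00010, had 3.33, 5.19 and 2.28 FPKM at E-L 37, against 26.6, 10.1 and 7.96 FPKM at E-L 36 (-1.65 ± 0.56, adjusted p = 0.0317), and its call was lost in 3 of 15 settings. VviPAL15 had 12.3, 15.0 and 8.63 FPKM at E-L 37, against 45.6, 19.8 and 18.2 FPKM at E-L 36 (-1.06 ± 0.44, adjusted p = 0.0780), and the most abundant PAL gene, VviPAL7, had 37.1, 27.1 and 46.4 FPKM at E-L 37, against 36.6, 33.0 and 25.7 FPKM at E-L 36. In VIT_200s2849g00010 and VviPAL15 E-L 36 replicate A was the highest of the 6 libraries. Of 5 tested 4-coumarate-CoA ligase genes 2 fell, VIT_206s0061g00450 and VIT_211s0052g01090 (-0.32 and -0.82), and both were lost in at least 1 alternative.

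In the flavonoid part of the pathway, 0 of 4 chalcone synthase, 0 of 1 chalcone isomerase, 0 of 11 F3'5'H, 0 of 4 dihydroflavonol reductase, 0 of 2 leucoanthocyanidin dioxygenase, 0 of 2 leucoanthocyanidin reductase, 0 of 2 anthocyanidin reductase and 0 of 4 UFGT genes were called. The chalcone synthase gene VIT_205s0136g00260, which commits precursors to flavonoids, had 620.2, 598 and 715 FPKM at E-L 37, against 674, 808 and 707 FPKM at E-L 36. The genes called in this part belonged to the lists of hydroxylases and flavonol synthases. VviF3'H, whose product adds the second hydroxyl group of cyanidin and quercetin, had 47.9, 41.1 and 49.1 FPKM at E-L 37, against 33.1, 25.1 and 26.5 FPKM at E-L 36 (0.69 ± 0.14, adjusted p = 0.000681), and the adjacent F3'H gene VIT_217s0000g07210 also rose (0.86). VIT_209s0002g01090, assigned to F3'H by KEGG, had 11.3, 15.4 and 10.1 FPKM at E-L 37, against 27.6, 28.4 and 22.1 FPKM at E-L 36 and fell (-1.04 ± 0.32, adjusted p = 0.0183), a call lost in 4 of 15 settings. In the whole F3'H list, 2 of 6 members rose and 1 fell as deposited, and 2 rose and 2 fell after scaling. VviFLS3, a flavonol synthase, had 31.9, 28.4 and 38.4 FPKM at E-L 37, against 11.2, 16.2 and 13.5 FPKM at E-L 36 (1.22 ± 0.22, adjusted p = 0.000266), whereas VviFLS4 had 3.46, 3.09 and 7.24 FPKM at E-L 37, against 6.04, 4.49 and 3.82 FPKM at E-L 36 (-0.10 ± 0.28, adjusted p = 0.828). In the whole flavonol synthase list, 2 of 14 members rose and 1 fell, and 2 rose and 2 fell after scaling. These shares were near those of all tested genes, 18.8% higher and 8.82% lower, and 10.2% and 13.7% after scaling. The other member called higher, VIT_202s0012g00450 (0.92 ± 0.30, adjusted p = 0.0230), lost its call in 5 of 14 settings. VviF3H1 and VviF3H2, which supply the common precursor of flavonols and anthocyanins, were called higher as deposited (0.58 and 0.45) and not after scaling. VIT_213s0047g00210, titled a flavanone 3-dioxygenase, had 0.730, 0.630 and 0.840 FPKM at E-L 37, against 2.80, 3.22 and 2.46 FPKM at E-L 36 and fell (-1.14 ± 0.23, adjusted p = 0.000759), a call kept in all 14 settings in which it was tested. VviFLS1, VviFLS2 and the flavonol regulator VviMYBF1 were below the filter and were not tested.

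Stilbene synthase competes with chalcone synthase for the same substrates, and 0 of 42 tested genes were called although the median was -0.48. VIT_216s0100g00990 had 1.17, 1.54 and 1.00 FPKM at E-L 37, against 17.9, 5.10 and 2.01 FPKM at E-L 36 (-1.66 ± 0.63, adjusted p = 0.0552, called lower after scaling). Its 3 E-L 36 libraries spread by several-fold. The most abundant stilbene synthase, VIT_206s0061g01250, had 35.1, 21.4 and 24.8 FPKM at E-L 37, against 22.8, 30.0 and 29.7 FPKM at E-L 36, which overlapped. These genes are near-identical, and their single values are uncertain. In the lignin branch 3 of 13 cinnamyl alcohol dehydrogenase genes fell and 2 rose, and 3 fell and 1 rose after scaling. VIT_200s0371g00050, titled a mannitol dehydrogenase, had 71.7, 74.8 and 54.6 FPKM at E-L 37, against 221, 136 and 148 FPKM at E-L 36 (-1.30 ± 0.24, adjusted p = 0.000392), and VIT_202s0025g03100 had 27.7, 20.0 and 31.7 FPKM at E-L 37, against 15.5, 13.1 and 15.3 FPKM at E-L 36 (0.79 ± 0.14, adjusted p = 0.000234). Of 20 cinnamoyl-CoA reductase genes, 3 rose and 1 fell, and 2 rose and 3 fell after scaling.

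Among hormone genes, those of carotenoid cleavage were called in both directions. NCED cleaves carotenoids in the committed step of abscisic acid synthesis, and other carotenoid cleavage dioxygenases make other products. Of 9 tested genes of this list, 2 fell and 2 rose, and 2 fell and 1 rose after scaling. NCED VIT_219s0093g00550 had 8.66, 6.17 and 3.70 FPKM at E-L 37, against 26.3, 38.8 and 30.8 FPKM at E-L 36 (-2.24 ± 0.23, adjusted p = 1.38e-06), and VIT_210s0003g03750 had 5.42, 6.46 and 4.20 FPKM at E-L 37, against 12.2, 14.8 and 11.5 FPKM at E-L 36 (-1.13 ± 0.17, adjusted p = 6.00e-05). VIT_202s0087g00910, which the KEGG orthology in the table also assigns to NCED, went the other way and had 29.9, 21.9 and 27.7 FPKM at E-L 37, against 11.2, 5.74 and 8.24 FPKM at E-L 36 (1.58 ± 0.29, adjusted p = 0.000439). Its neighbour VIT_202s0087g00930 rose as deposited (0.79), a call lost in 9 of 15 settings, scaling among them. Of 53 genes of abscisic acid signalling, 13 rose and 9 fell as deposited and 7 rose and 13 fell after scaling. The PYL receptor gene VIT_210s0003g01335 and the ABF factor VIT_208s0007g03420 had 5.94 and 5.50 FPKM in E-L 37 replicate B and at most 0.160 FPKM in the other 5 libraries, that is, in the library with the seed transcripts.

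Of 59 cytokinin genes, 17 rose and 8 fell, and after scaling 11 rose and 12 fell. All tested genes had 18.8% higher and 8.82% lower, and 10.2% and 13.7% after scaling. Type-A response regulators, which damp the cytokinin response and are switched on by it, moved both ways. ARR9-like VIT_207s0005g04340 had 12.4, 14.2 and 8.74 FPKM at E-L 37, against 31.8, 31.1 and 26.9 FPKM at E-L 36 (-1.30 ± 0.16, adjusted p = 9.99e-06), and VIT_201s0026g00940 had 33.0, 28.7 and 27.6 FPKM at E-L 37, against 15.0, 14.1 and 12.2 FPKM at E-L 36 (1.06 ± 0.17, adjusted p = 7.84e-05). Cytokinin trans-hydroxylase VIT_213s0067g00110, which makes trans-zeatin, had 1.07, 2.14 and 1.14 FPKM at E-L 37, against 6.16, 4.15 and 5.18 FPKM at E-L 36 (-1.34 ± 0.21, adjusted p = 5.72e-05). The phosphotransfer protein AHP, VIT_211s0016g03170, which carries the signal to the nucleus, had 7.65, 7.48 and 7.71 FPKM at E-L 37, against 12.9, 16.8 and 13.7 FPKM at E-L 36 (-0.84 ± 0.18, adjusted p = 0.00148). VIT_217s0000g04920, listed by the study as the cytokinin receptor CRE1, had 5.87, 2.90 and 2.54 FPKM at E-L 37, against 15.6, 12.5 and 7.51 FPKM at E-L 36 (-1.44 ± 0.33, adjusted p = 0.00247), and another gene listed as CRE1, VIT_213s0019g01180, had 7.73, 8.36 and 6.43 FPKM at E-L 37, against 21.99, 16.5 and 15.9 FPKM at E-L 36 (-1.16 ± 0.14, adjusted p = 5.20e-06). The deposited annotation names neither gene a cytokinin receptor, and it titles VIT_217s0000g04920 tubulin beta-1 chain-like.

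Of 61 auxin response genes, 11 rose and 8 fell as deposited, and 5 rose and 15 fell after scaling. For this and the next lists, all tested genes had 18.8% higher and 8.82% lower, and 10.2% and 13.7% after scaling. The AUX/IAA gene VIT_207s0141g00270 had 36.1, 31.6 and 32.9 FPKM at E-L 37, against 18.7, 13.2 and 17.1 FPKM at E-L 36 (1.01 ± 0.18, adjusted p = 0.000235), whereas the auxin response factor VIT_210s0003g00420 had 8.06, 8.77 and 6.79 FPKM at E-L 37, against 13.6, 11.4 and 12.7 FPKM at E-L 36 (-0.61 ± 0.13, adjusted p = 0.000987). The influx carrier AUX1, VIT_208s0007g02030, was lower (-0.76 ± 0.25, adjusted p = 0.0263), a call lost in 5 of 15 settings. Of 4 genes of ethylene synthesis 0 were called, and of 11 ethylene receptors and signal genes 1 rose and 0 fell, against 0 and 2 after scaling. In jasmonate metabolism and signalling, 4 of 33 rose and 6 fell, and 2 rose and 6 fell after scaling. A jasmonate O-methyltransferase by KEGG, titled a benzoate carboxyl methyltransferase, VIT_204s0023g02200, had 35.3, 24.3 and 35.3 FPKM at E-L 37, against 11.0, 7.46 and 6.83 FPKM at E-L 36 (1.80 ± 0.21, adjusted p = 3.95e-06). TIFY 5A-like VIT_210s0003g03790, of the family of jasmonate repressors, had 66.0, 46.7 and 87.9 FPKM at E-L 37, against 18.6, 16.1 and 20.3 FPKM at E-L 36 (1.77 ± 0.29, adjusted p = 0.000150). Lipoxygenase VIT_206s0004g01510, of the enzymes that oxidise fatty acids ahead of jasmonate, had 126, 126 and 149 FPKM at E-L 37, against 301, 223 and 211 FPKM at E-L 36 (-0.85 ± 0.15, adjusted p = 0.000238).

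Among transcription factors of the MYB family, 17 of 70 tested rose and 1 fell as deposited, and 9 rose and 5 fell after scaling, beside 18.8% higher and 8.82% lower, and 10.2% and 13.7% after scaling, of all tested genes. VIT_215s0048g02120 had 4.16, 4.06 and 5.45 FPKM at E-L 37, against 1.00, 1.14 and 1.49 FPKM at E-L 36 (1.33 ± 0.18, adjusted p = 2.07e-05), and the MYB1R1-like gene VIT_217s0000g07510 had 105, 100.2 and 94.1 FPKM at E-L 37, against 58.7, 60.1 and 55.8 FPKM at E-L 36 (0.77 ± 0.11, adjusted p = 2.63e-05). VviMYBPA1, a regulator of proanthocyanidin genes, had 9.47, 8.50 and 26.1 FPKM at E-L 37, against 7.19, 6.68 and 7.59 FPKM at E-L 36, where replicate C alone was high at E-L 37 (adjusted p = 0.230). Of 42 WRKY genes 11 rose and 5 fell as deposited, and 5 rose and 8 fell after scaling. Of 14 NAC genes 3 rose and 0 fell as deposited, and 1 rose and 2 fell after scaling, so neither list had a balance that held under both. WRKY factor VIT_201s0010g03930 had 16.4, 12.8 and 17.2 FPKM at E-L 37, against 6.81, 6.68 and 6.30 FPKM at E-L 36 (1.11 ± 0.25, adjusted p = 0.00252). A MADS-box gene, VIT_218s0041g01880, had 25.6, 34.1 and 17.4 FPKM at E-L 37, against 5.66, 6.86 and 9.14 FPKM at E-L 36 (1.67 ± 0.45, adjusted p = 0.00832).

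Genes of light response and the daily clock rose in 11 of 33 cases and fell in 1 as deposited, and rose in 7 and fell in 4 after scaling. The shares of all tested genes were 18.8% higher and 8.82% lower, and 10.2% and 13.7% after scaling. All berries were picked within the same morning hour by the sampling protocol. EARLY FLOWERING 3, VIT_204s0008g00660, a part of the evening complex of the clock, had 23.8, 20.2 and 28.4 FPKM at E-L 37, against 14.2, 11.9 and 13.5 FPKM at E-L 36 (0.81 ± 0.11, adjusted p = 1.33e-05). Pseudo-response regulator 5, VIT_216s0098g00900, a repressor in the clock, had 28.7, 28.2 and 36.3 FPKM at E-L 37, against 20.2, 17.4 and 20.3 FPKM at E-L 36 (0.66 ± 0.10, adjusted p = 4.88e-05). The CONSTANS-like genes moved both ways, VIT_212s0057g01350 up (1.08 ± 0.19, adjusted p = 0.000290) and VIT_211s0052g01800 down (-0.63 ± 0.12, adjusted p = 0.000415).

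The same stages could be set side by side in the LR-V and C vines, whose libraries are separate from those of LM-V. Between E-L 36 and 37, LR-V berries had 3633 genes higher (18.4%) and 2773 lower (14.0%), and C berries 5453 higher (27.6%) and 1966 lower (9.95%). Of the 3720 genes higher in LM-V, 2423 were also called higher in LR-V (65.1% of the LM-V list and 66.7% of the LR-V list) and 3063 in C (82.3% and 56.2%). Of the 1743 genes lower in LM-V, 1413 were also lower in LR-V (81.1% and 50.96%) and 1233 in C (70.7% and 62.7%). Calls in the opposite direction numbered 2 and 1 against LR-V and 1 and 8 against C. In all 3 treatments 2158 genes rose and 1041 fell, while 392 rose and 138 fell by the test in LM-V alone, which does not show that they differed between treatments.

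Several gene lists had medians of the same sign in the 3 treatments. The medians of all tested genes were 0.13 in LM-V, 0.075 in LR-V and 0.19 in C. The photosystem list had a median of -0.39 in LM-V, -0.60 in LR-V and -0.13 in C, with 23, 31 and 20 of 62 genes lower. The histone list had medians of 0.56, 0.78 and 0.70 in LM-V, LR-V and C, with 24, 26 and 30 of 41 genes higher, and the invertase list had -1.18, -1.72 and -1.29. For the proteasome, 27 of 63 genes rose and 0 fell in LM-V, 15 rose and 3 fell in LR-V, a share of rises near the 18.4% of all tested genes there, and 36 rose and 0 fell in C. VviF3'H rose by 0.69 in LM-V, 0.75 in LR-V and 1.01 in C on the log2 scale, and VviFLS3 by 1.22, 1.83 and 0.97. VviFLS4, in contrast, changed by -0.10 in LM-V, 0.08 in LR-V and 1.46 in C. Its difference between LM-V and C was -1.56 with a 95% interval of ± 0.83 (adjusted p = 0.168 by limma), and it was picked with its values known. No list held a member whose change differed by test between LM-V and C, and 1 gibberellin gene, below FPKM 1 in every LM-V library of these stages, differed between LM-V and LR-V. VviMYBA1 came near it against C: its change was -0.62 in LM-V and 0.91 in C, a difference of -1.53 with a 95% interval of ± 0.69 (adjusted p = 0.0733). For the phosphotransfer protein AHP the difference to C was -0.80 ± 0.53 (95% interval, adjusted p = 0.312). For VIT_217s0000g04920, listed as CRE1 by the study but titled tubulin beta-1 chain-like, it was -1.65 ± 0.97 (adjusted p = 0.231). Both genes were chosen after their values were seen.

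**Figure D4:**
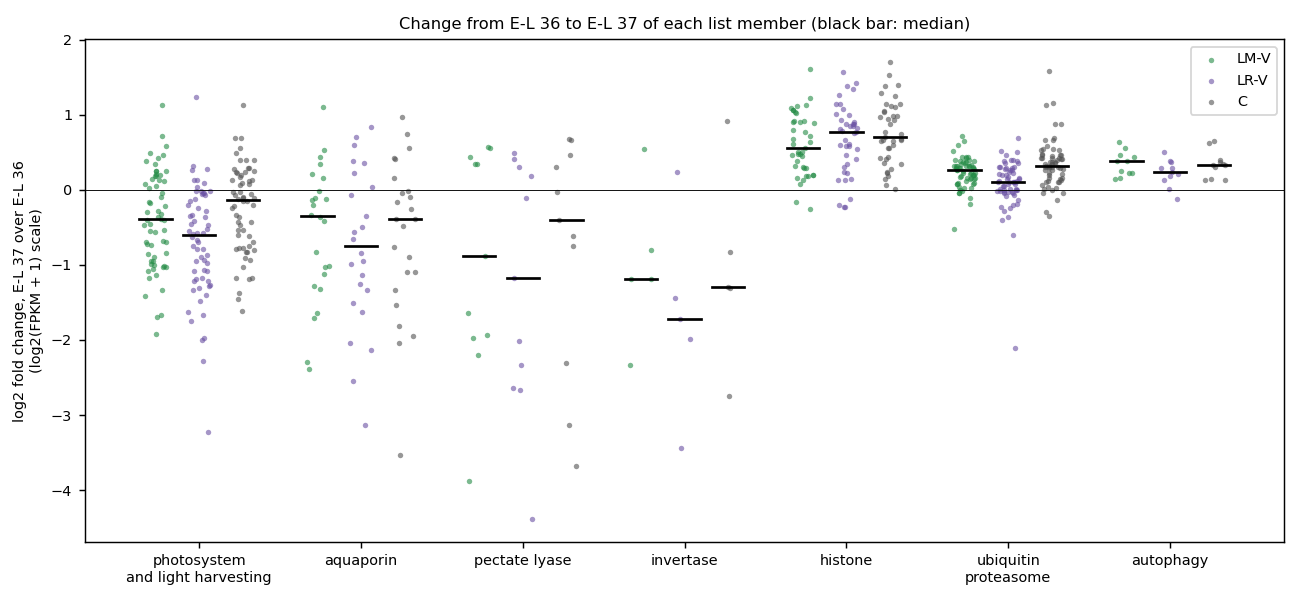
Log2 fold change of E-L 37 over E-L 36, on the log2(FPKM + 1) scale, for each tested member of 7 gene lists in LM-V (green), LR-V (purple) and C (grey) berries, with the list median as a black bar. Photosystem, aquaporin, pectate lyase and invertase medians lie below 0 and histone, proteasome and autophagy medians above 0 in all 3 treatments. The median of all tested genes was itself above 0, at 0.13 in LM-V, 0.075 in LR-V and 0.19 in C. The proteasome median in LR-V was 0.11.

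Few genes passed a test of the difference itself, which does not show that the other genes changed alike. How many true differences this test would find was not simulated. Between LM-V and C, 8 of 19761 genes passed (0.0405%, 1672 at an unadjusted p below 0.05), 4 with a change higher in LM-V and 4 with a change lower. All 8 had an adjusted p of 0.0445, and 0 passed after scaling. With single libraries left out the count ran from 0 to 18. It was 0 without LM-V E-L 37 replicate B, C E-L 37 replicate A or B, or C E-L 36 replicate B or C, and 1 and 2 without LM-V E-L 36 replicate B and C. Between LM-V and LR-V, 2 genes passed (0.0101%, 1701 unadjusted), both as deposited and after scaling. This count ran from 0 to 8 with single libraries left out, and was 0 without LM-V E-L 37 replicate C, LM-V E-L 36 replicate A or C, or LR-V E-L 37 replicate A or C. The mean log2 level of the seed markers 2S albumin and vicilin was 3.29 in LM-V E-L 37 replicate B, between 0.17 and 4.84 in the LR-V libraries of both stages and between 0 and 1.73 in the C libraries of both stages, and its part in these differences was tested only as a covariate, under which 18 and 2 genes passed.

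The calcium sensor gene VIT_205s0102g00450 (calmodulin-like, CML) had in LM-V 35.0, 52.4 and 32.3 FPKM at E-L 37, against 103, 92.7 and 92.1 FPKM at E-L 36. In C it had 13.4, 12.9 and 13.7 FPKM at E-L 37, against 88.9, 99.4 and 94.1 FPKM at E-L 36. The fall was thus smaller in LM-V than in C, by 1.45 ± 0.24 (SE) on the log2 scale. LR-V lay near LM-V, with 44.05, 41.2 and 44.3 FPKM at E-L 37, against 89.05, 110 and 100.25 FPKM at E-L 36. The calcium pump gene VIT_200s0691g00010, annotated as a Ca2+-transporting ATPase, had in LM-V 7.79, 9.59 and 8.83 FPKM at E-L 37, against 12.2, 9.71 and 11.6 FPKM at E-L 36, and in C 5.57, 4.96 and 4.06 FPKM at E-L 37, against 15.9, 14.2 and 13.7 FPKM at E-L 36 (difference 1.098 ± 0.20). In LR-V it had 12.5, 7.85 and 11.4 FPKM at E-L 37, against 7.61, 8.06 and 8.30 FPKM at E-L 36. Beta-amylase VIT_205s0020g01910, an enzyme of starch breakdown, had in LM-V 171, 147 and 164 FPKM at E-L 37, against 180.4, 206 and 189 FPKM at E-L 36, and in C 210.1, 211 and 189 FPKM at E-L 37, against 171, 138 and 167 FPKM at E-L 36 (difference -0.61 ± 0.11). It was lower at E-L 37 in LM-V and higher in C. LR-V went as LM-V did, with 167, 181 and 179 FPKM at E-L 37, against 217, 218 and 190 FPKM at E-L 36. The unnamed VIT_217s0000g03720 differed mainly at E-L 36, with in LM-V 58.7, 65.5 and 59.7 FPKM at E-L 37, against 129, 157 and 115 FPKM at E-L 36, and in C 62.3, 62.3 and 57.4 FPKM at E-L 37, against 76.6, 66.2 and 74.0 FPKM at E-L 36 (difference -0.86 ± 0.16). It also fell in LR-V, with 58.5, 74.55 and 64.2 FPKM at E-L 37, against 177, 181 and 174 FPKM at E-L 36. Against LR-V, the extended synaptotagmin-2 gene VIT_218s0001g14630, of a family that tethers membranes, had in LM-V 28.3, 26.5 and 31.2 FPKM at E-L 37, against 37.0, 40.7 and 36.3 FPKM at E-L 36, and in LR-V 20.4, 25.7 and 21.8 FPKM at E-L 37, against 52.5, 68.6 and 52.2 FPKM at E-L 36 (difference 0.92 ± 0.13, adjusted p = 0.0129). The gibberellin 2-beta-dioxygenase 8-like gene VIT_219s0177g00030, of the enzymes that inactivate gibberellin, had in LM-V 0.700, 0.350 and 0.360 FPKM at E-L 37, against 0.470, 0.920 and 0.510 FPKM at E-L 36, and in LR-V 0.140, 0.210 and 0.280 FPKM at E-L 37, against 4.52, 2.80 and 2.55 FPKM at E-L 36 (difference 1.65 ± 0.27, adjusted p = 0.0404). In both genes the LR-V libraries of E-L 36 were the highest of the 4 groups. VIT_219s0177g00030 was below FPKM 1 in every LM-V and C library of both stages and in LR-V at E-L 37. Among the libraries of these stages it reached the filter level only in LR-V at E-L 36. Its difference thus rests on that group and is no finding about a change in LM-V.

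**Figure D5:**
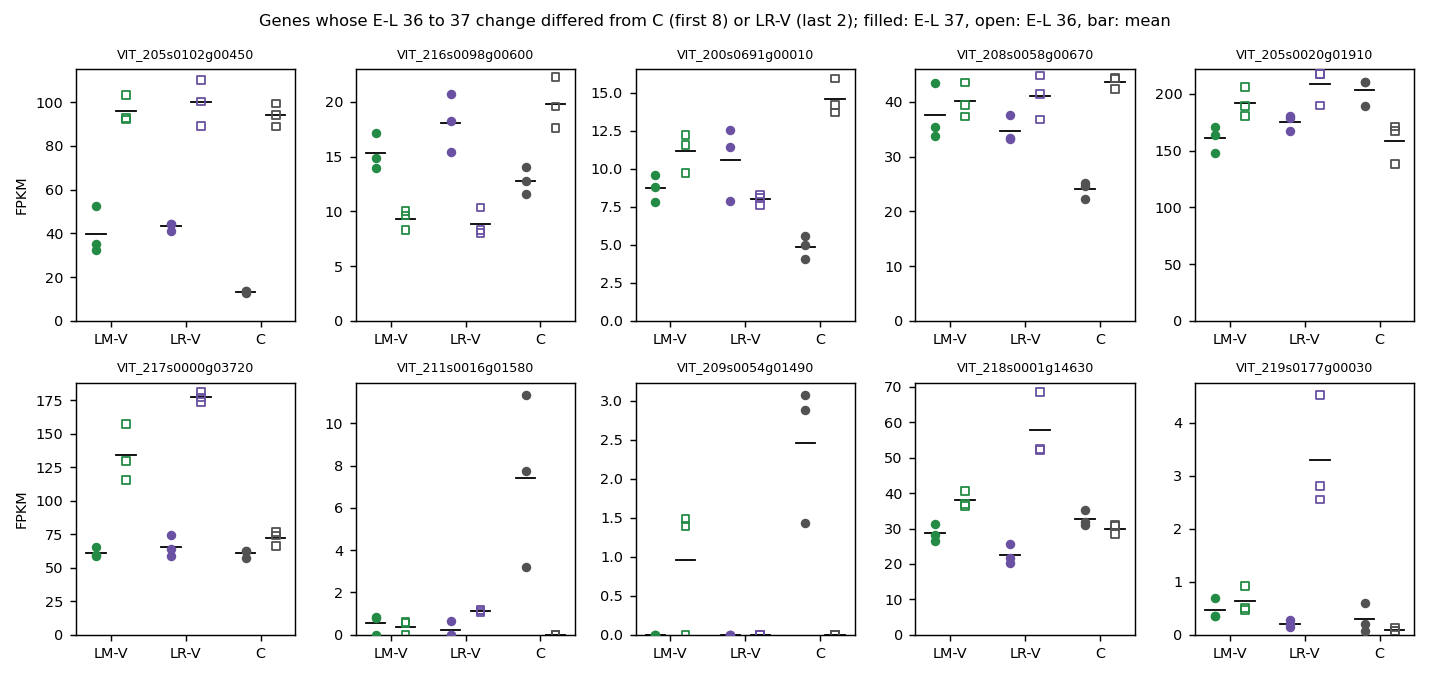
FPKM of the 10 genes whose change between E-L 36 and E-L 37 differed in LM-V from that in C (first 8 panels) or LR-V (last 2 panels). Each point is 1 library, filled for E-L 37 and open for E-L 36, and bars are means of 3 libraries. The calcium sensor VIT_205s0102g00450 had 32.3 to 52.4 FPKM at E-L 37 in LM-V, 41.2 to 44.3 FPKM in LR-V and 12.9 to 13.7 FPKM in C.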

How the data were processed

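RNA of berries from 9 groups (LM-V, LR-V and C at E-L 36, 37 and 38), 3 replicates each, was sequenced as single reads of 50 bp. The authors mapped reads to grapevine genome V2 with Bowtie (the submitters' processing notes name Bowtie2 2.2.5), with up to 2 mismatches, and deposited FPKM values per gene to 2 decimals for all 28940 genes. Which program gave these FPKM values is not stated in the sources at hand. Whether reads that map to several genes were shared is not known, so members of near-identical families are uncertain, and FPKM without counts allows no counting interval.

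The 19761 genes that reached FPKM 1 in 3 or more of the 27 libraries were fitted as log2(FPKM + 1), with a pseudocount of 1, in 9 group means with limma 3.58.1 (R 4.3.3, statmod 1.5.0), with trended, robust empirical Bayes moderation. The contrasts were E-L 37 minus E-L 36 in LM-V, and that change minus the same change in C or LR-V. The p values were adjusted over all 19761 genes by the method of Benjamini and Hochberg, with a threshold of 0.05. They measure the spread between replicate libraries within a group, pooled over the 9 groups. Vine pools, the draw of berries and library preparation all enter that spread and are not separated. Tested on simulated data for the LM-V contrast over 19761 genes, the fit called 80 of 100 genes changed 2-fold, 95 of 100 changed 4-fold and 9 of 19561 unchanged genes.

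The 64 gene lists were built from the KEGG orthology and the protein titles in the deposited table. Depending on the list, a KEGG assignment with an e-value of at most 1e-20 decided alone, decided before the title, or counted beside it. Entries whose title contradicts the KEGG assignment could remain, such as VIT_208s0007g05160, titled a TGA-2.1-like DNA-binding protein and assigned to F3'5'H. The comparison and the lists were chosen with earlier results of these data known. Named genes were those the study gives by identifier; the 10 highest and lowest called fold changes without overlap and with a mean FPKM of at least 5; up to 4 members of each list with the smallest adjusted p and its most abundant member; the called differences to C and LR-V; and the 5 most abundant genes. The RefSeq gene table at hand is of another assembly than the authors' build, so no coordinates are given. Alternatives were median-of-ratios scaling, other pseudocounts and filters, fewer groups, the replicate letter as a block, a seed marker covariate, leaving out each library, and the rule of the study's methods (NOISeq). Of 336 named genes, 208 were called in LM-V.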

Additional observations from a re-analysis of the deposited data

Results flagged for a closer look

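The test of the difference singled out 10 genes whose change between E-L 36 and E-L 37 in LM-V was not that in C or in LR-V, each given here as a difference of log2 fold changes by limma with its SE. Against C, the change was higher in LM-V for the calmodulin-like gene VIT_205s0102g00450 (1.45 ± 0.24), VIT_216s0098g00600 (1.25 ± 0.22), the Ca2+-transporting ATPase gene VIT_200s0691g00010 (1.098 ± 0.20) and VIT_208s0058g00670, annotated with methyltransferase activity (0.74 ± 0.13). It was lower in LM-V for beta-amylase VIT_205s0020g01910 (-0.61 ± 0.11), VIT_217s0000g03720 (-0.86 ± 0.16), VIT_211s0016g01580 (-2.80 ± 0.50) and VIT_209s0054g01490 (-2.61 ± 0.45). All 8 had an adjusted p of 0.0445. Each kept its sign in the 20 or 21 alternatives that gave it a value, where between 5 and 8 still called it and adjusted p ran from 0.00295 to 0.251.

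VIT_216s0098g00600, which has no clear name, had in LM-V 14.8, 17.1 and 14.0 FPKM at E-L 37, against 9.61, 10.0 and 8.28 FPKM at E-L 36, and in C 11.6, 14.1 and 12.8 FPKM at E-L 37, against 22.3, 17.6 and 19.6 FPKM at E-L 36, a rise in LM-V and a lower level at E-L 37 in C. LR-V rose as well, with 15.4, 18.2 and 20.7 FPKM at E-L 37, against 10.35, 8.01 and 8.28 FPKM at E-L 36. In VIT_208s0058g00670 the values were, in LM-V, 35.4, 43.4 and 33.9 FPKM at E-L 37, against 43.5, 37.3 and 39.5 FPKM at E-L 36, and in C 24.6, 25.2 and 22.3 FPKM at E-L 37, against 42.3, 44.3 and 44.4 FPKM at E-L 36, where only the C libraries of E-L 37 stood apart. LR-V had 33.2, 33.5 and 37.6 FPKM at E-L 37, against 36.8, 44.8 and 41.4 FPKM at E-L 36. VIT_211s0016g01580 had in LM-V 0.830, 0.80 and 0 FPKM at E-L 37, against 0, 0.550 and 0.590 FPKM at E-L 36, and in C 11.3, 7.77 and 3.21 FPKM at E-L 37, against 0, 0 and 0 FPKM at E-L 36. VIT_209s0054g01490 was listed at 0 FPKM in all 3 LM-V libraries of E-L 37, against 1.39, 0 and 1.48 FPKM at E-L 36, and in C had 2.88, 3.07 and 1.43 FPKM at E-L 37, against 0, 0 and 0 FPKM at E-L 36. The last 2 genes are low, and since they are listed at 0 in C at E-L 36, their fitted differences depend on the pseudocount. VIT_211s0016g01580 was below FPKM 1 in every LM-V library of both stages. Its difference thus rests on C at E-L 37 and shows no change in LM-V. For VIT_209s0054g01490, only C at E-L 37 had all 3 libraries at FPKM 1 or more. Its own fall in LM-V (-0.86, adjusted p = 0.0468 by limma) lost its call in 7 of 14 settings. In LR-V, VIT_211s0016g01580 had 0.650, 0 and 0 FPKM at E-L 37, against 1.15, 1.05 and 1.17 FPKM at E-L 36. VIT_209s0054g01490 was listed at 0 FPKM in every LR-V library of both stages.

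Against LR-V, the change was higher in LM-V for the extended synaptotagmin-2 gene VIT_218s0001g14630 (0.92 ± 0.13, adjusted p = 0.0129) and the gibberellin 2-beta-dioxygenase 8-like gene VIT_219s0177g00030 (1.65 ± 0.27, adjusted p = 0.0404). Of the 21 and 20 alternatives, 15 and 6 still called them, with adjusted p between 0.00293 and 0.540. VIT_219s0177g00030 was below FPKM 1 in all libraries of E-L 36 and 37 except those of LR-V at E-L 36. Its difference rests on that group and shows no change in LM-V.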

How the results depend on the processing

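The direction of the 208 called named genes held in every alternative, and 152 stayed called in all of them. The counts of called genes moved more. Against 3720 genes higher and 1743 lower at E-L 37, median-of-ratios scaling gave 2011 and 2701, fitting only the 2 groups compared 1999 and 1208, and the rule of the study's methods (a fold change of at least 2 and a NOISeq probability of at least 0.8, rebuilt from its description) 268 and 409, of which 194 and 369 were among the genes called by limma. Leaving out 1 library gave 2395 to 3966 higher and 1200 to 1781 lower. The 8 genes that differed from C became 0 with scaling, with a pseudocount of 0.1 or 0.5, without the filter, with only the groups compared, and with neither trend nor robust fitting, 13 with the replicate block, 18 with the seed marker covariate and 21 with a filter of FPKM 5, and ran from 0 to 18 with a library left out. The genes at an unadjusted p below 0.05 numbered 1285 to 1994 over the settings with all libraries. The 2 genes that differed from LR-V became 1 with a pseudocount of 0.5, the filter of FPKM 5 or the replicate block, 1 other gene and 0 of the 2 with only the groups compared, 8 without the filter, and ran from 0 to 8 with a library left out. The causes of these moves were not tested. Whether same-lettered libraries of the 2 stages came from the same vines is not stated. Deviations of same-lettered libraries from their stage means correlated at -0.04, 0.08 and 0.06 for A, B and C, and those of unlike letters at -0.105 to 0.049. With the letter as a replicate block 3640 genes were higher and 1709 lower. That block fits 1 effect per letter over all treatments, so it cannot decide whether libraries were paired within LM-V. FPKM to 2 decimals and unknown read counts limit what can be said of low genes.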

Other observations

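Some gene lists that were not described above also held called genes, compared with 18.8% of all tested genes higher and 8.82% lower at E-L 37 in LM-V. In the list of wax and cutin genes of the berry cuticle, 6 of 14 fell and 2 rose, as deposited and after scaling. Members of 1 enzyme family, the 3-ketoacyl-CoA synthases that lengthen fatty acids for waxes, moved both ways: VIT_205s0020g04540 had 10.8, 21.2 and 12.7 FPKM at E-L 37, against 46.4, 36.5 and 38.6 FPKM at E-L 36 (-1.43 ± 0.19, adjusted p = 1.33e-05), whereas VIT_204s0008g02250 had 52.4, 54.8 and 65.7 FPKM at E-L 37, against 36.8, 23.7 and 31.4 FPKM at E-L 36 (0.90 ± 0.15, adjusted p = 0.000180). Of 65 glutathione S-transferase genes, 11 fell and 7 rose, and 16 fell and 4 rose after scaling, and the most abundant, VIT_219s0015g02880, had 1072, 890.3 and 1842 FPKM at E-L 37, against 403, 569 and 770.4 FPKM at E-L 36 without passing the test (1.104 ± 0.46, adjusted p = 0.0808). Of 47 pathogenesis-related genes, 5 fell and 1 rose, and 9 fell and 0 rose after scaling, among the falls those of the chitinase gene VIT_205s0094g00300 (-1.39) and the thaumatin-like gene VIT_204s0023g03550 (-0.95). Of 46 heat shock genes, 8 rose and 4 fell as deposited and 3 rose and 7 fell after scaling, and the heat shock cognate VIT_206s0004g04510 had 89.8, 127 and 83.8 FPKM at E-L 37, against 209.8, 221 and 211 FPKM at E-L 36 (-1.11 ± 0.15, adjusted p = 1.99e-05).

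The 10 most abundant genes of a library held 29.3 to 32.6% of its FPKM in LM-V, and the 5 genes highest over both stages are given here. VIT_205s0049g00520 had 94071, 99812 and 89027 FPKM at E-L 37, against 98089.9, 104238 and 116020.0 FPKM at E-L 36 and did not pass the test (-0.17 ± 0.12), nor did the proline-rich extensin-related gene VIT_205s0049g00760 (0.11 ± 0.15) or VIT_208s0056g01600 (0.25 ± 0.10). VIT_218s0072g00380 fell (-0.64 ± 0.16, adjusted p = 0.00369) and VIT_219s0090g01370 rose (0.55 ± 0.18, adjusted p = 0.0255, not called after scaling).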
